A study of Mus musculus with 32 samples.

Results

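AMPA receptors are the glutamate-gated channels that carry most of the fast excitatory current between cortical neurons. Each channel is a tetramer of the pore subunits GluA1 to GluA4, encoded by Gria1, Gria2, Gria3 and Gria4, and GluA2 makes the channel nearly impermeable to calcium. Transmembrane AMPA receptor regulatory proteins (TARPs) bind the pore, bring it to the surface and the synapse, and slow its closing. The type I TARPs are stargazin (Cacng2), γ-3 (Cacng3), γ-4 (Cacng4) and γ-8 (Cacng8), and the type II TARPs are γ-5 (Cacng5) and γ-7 (Cacng7), which modulate gating with weaker effects on trafficking. Described here are these 10 genes, chosen by name as the pore subunits and TARPs, of the 49671 genes counted. The question put to the data was whether any of them, and Cacng5 in particular, changed apart from the rest of the family. Cacng5 was singled out with earlier results of these data known.

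The libraries were mRNA-seq of wild-type (WT) mouse cortical neurons in primary culture, which the study exposed to synthetic oligoribonucleotides added from outside to follow early (6 h) and later (5 d) changes in gene expression. There were 8 groups of 4 libraries, 32 in all: at each time point an untreated group and groups given either miR-92a-1-5p, or else miR-124-5p, or Mut.oligo, a mutated oligoribonucleotide that served as control. No group carried a mutation or a transgene. The labels call the 4 libraries of a group biological replicates and give each an experiment batch, lettered A to G at 6 h and H to M at 5 d. miR-92a-1-5p shared 4 batches with untreated cells at 6 h and 2 at 5 d, miR-124-5p shared 2 at each time, and Mut.oligo shared 2 at 6 h and 3 at 5 d. No batch held both time points, so time and batch cannot be told apart.

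Depth ranged from 24514090 to 73626029 counts per library. The summed level of 8 neuron markers was 5238 to 8037 CPM (counts scaled to a common library total after TMM normalisation), and that of 7 microglial markers 5.53 to 16.99 CPM. The defining microglial markers P2ry12 and Tmem119 reached at most 0.386 and 1.145 CPM, and the highest of the list, C1qa, 7.12 CPM. The cultures were not pure neurons. The summed level of 8 astrocyte markers ranged from 373 to 805 CPM over the 16 libraries at 6 h and from 1734 to 3109 CPM at 5 d. In bulk RNA, fewer cells of a type and less RNA per cell cannot be told apart.

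The mature sequence of miR-92a-1-5p is shown because a short RNA that enters the silencing pathway is matched to its targets through the seed, bases 2 to 8 from the 5′ end, given in capitals. The sequence is that of RefSeq (GRCm38.p6, chr14:115044437-115044459, plus strand).
miR-92a-1-5p: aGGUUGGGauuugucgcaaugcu
The complement of this seed in a transcript is CCCAACC. All 10 genes have an annotated 3′ UTR, and in 2 of them at least 1 annotated transcript held these 7 letters on the sense strand, against 9.43% of 21001 genes with a 3′ UTR. The matches were in Cacng4 (GRCm38, chr11:107732458-107732486, minus strand) and in Gria2 (chr3:80682651-80682679, minus strand), shown with the match in capitals.
Cacng4: ccttcttctgtCCCAACCcctccccaatg
Gria2: acagggaatttCCCAACCaagtacagaac
These letters were not found in the annotated 3′ UTRs of Cacng5 (gene at chr11:107874605-107915055, minus strand), whose longest has 2747 bases, and a match is only a string of letters, not a shown site.

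In untreated cultures at 6 h, the family was led by TARPs. Levels are compared between genes per length, as CPM divided by the kilobases of exon of the gene (RPKM). The highest was Cacng4 at 86.2 ± 4.91 RPKM (SD, n = 4), followed by Cacng7 at 65.4 ± 1.00 RPKM and Gria1 at 57.2 ± 2.21 RPKM. Gria2 stood at 23.6 ± 1.36 RPKM. The libraries of these 4 genes did not overlap with those of the next gene in the order. Cacng2 (12.8 ± 0.845 RPKM), Gria4 (12.4 ± 0.773 RPKM) and Cacng8 (10.55 ± 1.30 RPKM) formed a middle group in which neighbours overlapped. Cacng3 followed at 5.85 ± 0.996 RPKM. The lowest were Gria3, at 4.15 ± 0.444 RPKM, and Cacng5, at 3.92 ± 0.733 RPKM, whose libraries overlapped. Cacng5 therefore made up 2.14% ± 0.458 of the summed TARP level, and Cacng7, the other type II TARP, 35.4% ± 0.994. The remaining Cacng genes, which encode calcium channel γ subunits rather than TARPs, were close to absent in CPM: Cacng1 ranged from 0.676 to 2.096 CPM and Cacng6 from 0.0357 to 0.632 CPM over the 16 libraries at 6 h.

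At 5 d the pore subunits and 2 type I TARPs were higher in untreated cells than at 6 h, and 2 TARPs were lower. In the edgeR quasi-likelihood test over all genes, 8 of the 10 members passed an adjusted p of 0.05, 6 higher and 2 lower, where 54.7% of the 20425 genes tested passed in either direction. A share of that size in a family of 10 is set against a background in which more than every other gene changed.

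All 4 pore subunits rose. Gria3 was at 44.6, 36.7, 44.8 and 37.6 CPM in the 4 untreated libraries at 6 h and at 92.7, 81.6, 74.3 and 83.6 CPM at 5 d. The log2 fold change was 1.02 (SE 0.123, adjusted p = 3.82e-08, edgeR). Every library at 5 d was above every library at 6 h. Gria2, which sets calcium permeability, was at 383, 336, 374 and 375 CPM at 6 h and at 519, 612, 472 and 562 CPM at 5 d, with a log2 fold change of 0.56 (SE 0.114). The groups did not overlap for Gria2 either. Gria1 and Gria4 rose by less, with log2 fold changes of 0.48 (SE 0.0597) and 0.40 (SE 0.0666). Among the pore subunits the share of Gria3 went from 4.25% ± 0.298 at 6 h to 6.05% ± 0.533 at 5 d per length, while Gria2 held 24.2% ± 0.957 and 24.9% ± 1.4996, and Gria1 58.7% ± 1.31 and 57.2% ± 1.18.

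The type I TARPs parted from each other. Cacng3, γ-3, found mainly in the cerebral cortex, was at 13.4, 15.2, 19.96 and 16.4 CPM at 6 h and at 45.1, 36.0, 40.2 and 36.1 CPM at 5 d. This was the largest difference of the family, with a log2 fold change of 1.28 (SE 0.122, adjusted p = 4.37e-10). Cacng8, best known from the hippocampus, was higher by 0.41 (SE 0.0953) on the log2 scale. Cacng4, known from developing brain and from glia as well as neurons, fell by 0.30 (SE 0.0713, adjusted p = 0.000647) on the log2 scale. Cacng2 was at 70.8 ± 4.65 CPM at 6 h and 69.4 ± 8.12 CPM at 5 d, with a log2 fold change of -0.03 (SE 0.0665) that did not pass.

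Of the type II TARPs, Cacng7 fell by 0.30 (SE 0.0706, adjusted p = 0.000741) on the log2 scale. Cacng5 was at 15.2, 18.7, 11.9 and 14.3 CPM at 6 h and at 13.7, 11.3, 19.3 and 11.7 CPM at 5 d. Its log2 fold change of -0.10 (SE 0.193) did not pass, and the ranges overlapped over most of their width. As the pore subunits rose and the 2 most abundant TARPs fell, the summed TARP level per length was 1.90 ± 0.0652 times the summed pore level at 6 h and 1.203 ± 0.0301 times at 5 d.

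**Figure D1:**
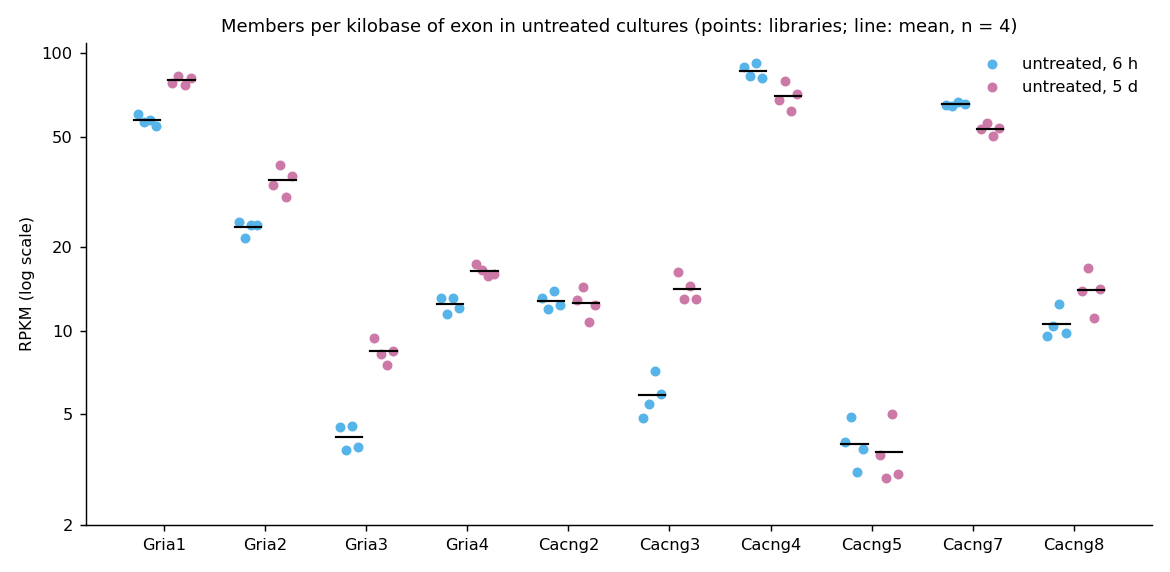
Levels of the 10 genes per length in untreated cultures, in RPKM on a log axis, with 1 point per library and a line at the mean of 4. Gria1 to Gria4 and Cacng3 sit higher at 5 d than at 6 h in every library, Cacng4 and Cacng7 lower, and Cacng2, Cacng5 and Cacng8 overlap between the times.

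Other AMPA receptor genes went mostly up between the time points. Of all genes tested, 54.7% passed in either direction, which is the background for each count here. Of 13 auxiliary and biogenesis proteins, 9 were higher and 1 lower at 5 d. Cpt1c, an endoplasmic reticulum partner of GluA1, had a log2 fold change of 1.33 (SE 0.114), Prrt1 (SynDIG4) one of 1.202 (SE 0.117), and Cnih2, a cornichon that exports AMPA receptors, one of -0.27 (SE 0.0860). Of 19 anchoring, trafficking and editing genes, 10 were higher and 3 lower. Camk2a, the kinase of synaptic potentiation, was at 1.64 (SE 0.124) on the log2 scale and Pick1, which holds GluA2 inside the cell, at -0.50 (SE 0.0555). The median over the 10 members was 0.40 and over all genes tested 0.04. Astrocyte markers moved with time as well, with 8 of 8 higher at 5 d and a median log2 fold change of 2.31, as did glutamatergic markers, with 4 of 6 lower and 2 higher. Their part in the members' differences was not tested.

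After 6 h with any of the oligoribonucleotides, Cacng5 stood lower than in untreated cells while the other 9 members stayed close to them. Untreated libraries held 11.9 CPM (batch A), 18.7 CPM (B), 15.2 CPM (D) and 14.3 CPM (E). With miR-92a-1-5p the same batches gave 7.66, 14.05, 8.88 and 10.8 CPM. Each treated library was thus below the untreated library of its own batch, although the batch B library lay within the untreated range and the groups overlapped. With Mut.oligo the values were 9.65 CPM in batch D, 9.64 CPM in E, 10.51 CPM in F and 9.41 CPM in G. All 4 were below all 4 untreated libraries, and they spread little (SD 0.486 CPM against 2.81 CPM in untreated cells). With miR-124-5p the values were 9.13 CPM in batch A, 11.96 CPM in C, 11.2 CPM in E and 11.98 CPM in F. These were below the untreated libraries except that 2 of them lay just above the lowest untreated value. Cacng5 was counted at 244 to 1049 reads per library at 6 h.

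**Figure D2:**
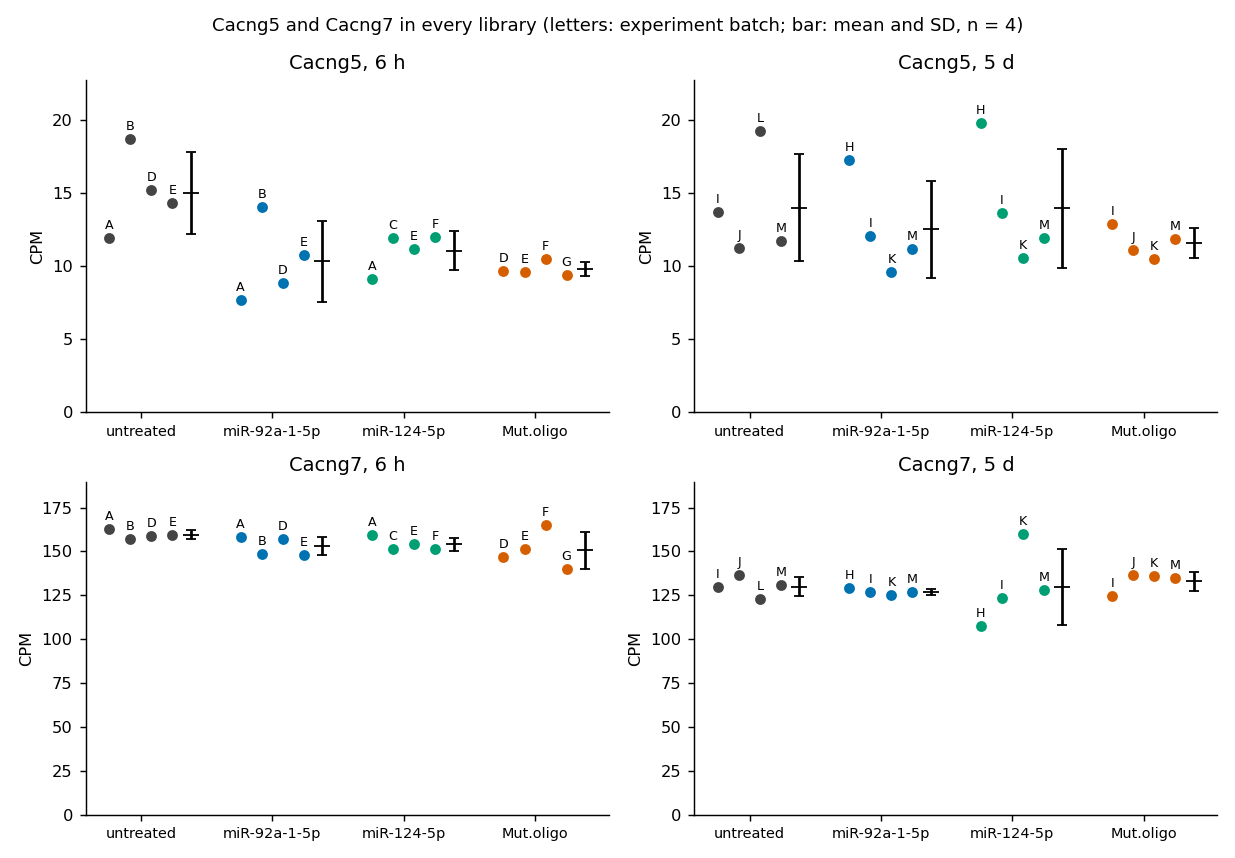
CPM of the type II TARPs Cacng5 and Cacng7 in each library, with the experiment batch as a letter and the mean and SD of 4 libraries beside the points, all axes starting at 0. At 6 h the treated Cacng5 libraries of batches A, B, D and E lie below the untreated library of their batch, with log2 differences from -0.78 to -0.36. Those of Cacng7 in these batches lie below it too but by less, from -0.11 to -0.02. Batches C, F and G held no untreated library. At 5 d Cacng5 is highest in batches H and L.

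By the edgeR test without a batch term, 0 of the 10 members passed in any comparison with untreated cells at 6 h, and neither did any other gene: 0% of 18755 genes were called for miR-92a-1-5p, for miR-124-5p and for Mut.oligo. DESeq2 called 0 members as well, but it gave Cacng5 no adjusted p with miR-92a-1-5p, so Cacng5 could not be called there. At an unadjusted p under 0.05 there was 1 member in each of the 3 comparisons, which was Cacng5, among 891, 852 and 1780 genes in the same order. Its log2 fold changes were -0.53 (SE 0.161, adjusted p = 0.999) with miR-92a-1-5p, -0.43 (SE 0.162, adjusted p = 1.00) with miR-124-5p and -0.59 (SE 0.164, adjusted p = 0.321) with Mut.oligo. The other 9 members lay between -0.06 and 0.20, between -0.04 and 0.12 and between -0.07 and 0.10 on the log2 scale in the same order. The 3 comparisons share the 4 untreated libraries.

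With the experiment batch in the model, the spread of Cacng5 narrowed and its size held. It was then the 1 member of 10 called for miR-92a-1-5p, with a log2 fold change of -0.55 (SE 0.0667, adjusted p = 0.00341, edgeR), where 1.06% of all genes tested were called. Cacng5 was also the 1 member called for Mut.oligo, at -0.57 (SE 0.0870, adjusted p = 0.0267), where 0.064% of all genes were called. For miR-124-5p the estimate was -0.37 (SE 0.0852) and did not pass (adjusted p = 0.798), nor did any other gene (0% called). At an unadjusted p under 0.05 in the batch model there were 3 members for miR-92a-1-5p (Cacng2, Cacng3 and Cacng5), 1 for miR-124-5p and 1 for Mut.oligo, both Cacng5. The share of all genes under that p in the batch model is not given here, so these counts stand without a background. With each library of the compared groups left out of the batch model in turn, the estimate for miR-92a-1-5p kept its call in 8 of 8 fits, between -0.60 and -0.48. The estimate for Mut.oligo stayed between -0.61 and -0.50 but kept its call in 3 of 8 fits, with adjusted p up to 0.362. It lost the call without any 1 of the 4 untreated libraries or without the Mut.oligo library of batch E. The Mut.oligo library of batch G was alone in its batch, so the kept call without it is hardly a test.

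Within shared batches, the log2 difference of Cacng5 from untreated cells was -0.64, -0.41, -0.78 and -0.42 in batches A, B, D and E with miR-92a-1-5p. With miR-124-5p it was -0.38 in batch A and -0.36 in E. With Mut.oligo it was -0.66 in batch D and -0.57 in E. Cacng5 was thus lower in 8 of 8 pairs, which share 4 untreated libraries. Cacng7 was lower in 8 of 8 as well, by less, with differences from -0.11 to -0.02, and no other member was lower in all 8. Among all genes tested, 12.3% were lower in all 4 miR-92a-1-5p pairs, 29.4% in both miR-124-5p pairs and 34.6% in both Mut.oligo pairs. The other 9 members lay between -0.18 and 0.38 in these pairs.

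**Figure D3:**
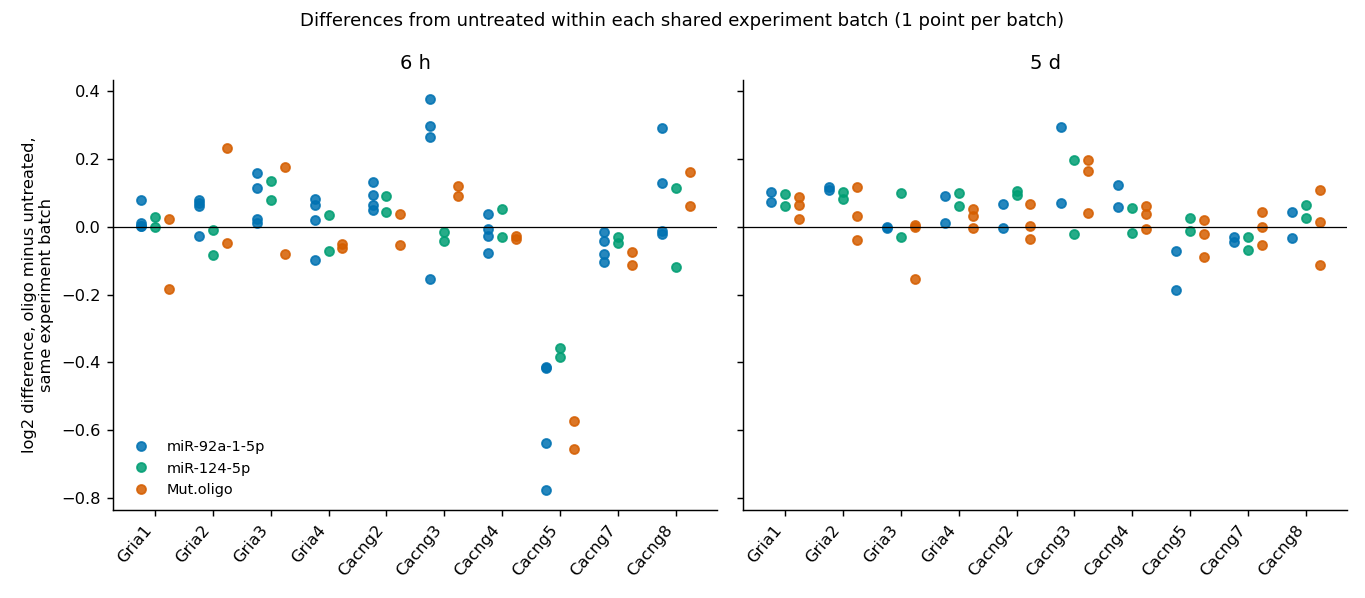
Log2 difference of each oligoribonucleotide from untreated cells within a shared experiment batch, with 1 point per batch, for the 10 genes at 6 h and 5 d. At 6 h the 8 points of Cacng5 lie between -0.78 and -0.36, while the other 9 genes lie between -0.18 and 0.38; at 5 d Cacng5 lies between -0.19 and 0.02.

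Counted by libraries that do not overlap between the groups, 1 member was apart from untreated cells at 6 h, Cacng5 with Mut.oligo, where 4.5% of all genes were apart in either direction. There were 0 of 10 members with miR-92a-1-5p (3.4% of genes) and 0 of 10 with miR-124-5p (3.45% of genes). Some batches kept their place across groups. Batch A gave the lowest Cacng5 value of untreated cells (11.9 CPM), of miR-92a-1-5p (7.66 CPM) and of miR-124-5p (9.13 CPM), and batch B the highest of untreated cells and of miR-92a-1-5p. Others did not: batches D and E changed order between untreated cells and miR-92a-1-5p, and the Mut.oligo libraries, each from another batch, lay close together.

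The other type II TARP, Cacng7, had log2 fold changes of -0.06, -0.04 and -0.06 with miR-92a-1-5p, with miR-124-5p and with Mut.oligo. Its untreated libraries held 157 to 163 CPM at 6 h, those with miR-92a-1-5p 148 to 158 CPM, those with miR-124-5p 151 to 159 CPM and those with Mut.oligo 140 to 165 CPM. The ratio of Cacng5 to Cacng7 within a library, which needs no scaling, differed by -0.50 on the log2 scale with miR-92a-1-5p (-3.92 ± 0.421 against -3.42 ± 0.289, n = 4, exact two-sided permutation p = 0.114, adjusted over 6 comparisons 0.229). With miR-124-5p the difference was -0.38 (exact permutation p = 0.0857, adjusted 0.229). With Mut.oligo it was -0.52 (exact permutation p = 0.0286, the smallest that 4 against 4 libraries allow, adjusted 0.171). None passed after adjustment. Cacng5 was singled out with earlier results of these data known, and the adjustment does not cover that choice. The permutation tests did not pair libraries by batch, so their p-values include the spread between batches. Within the 8 pairs of a treated and an untreated library of the same batch, the ratio of Cacng5 to each of the other 9 members was below that of untreated cells in every pair, with differences from -1.07 to -0.26 on the log2 scale.

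Among the type I TARPs, the next largest difference was that of Cacng3 with miR-92a-1-5p. It was at 23.97, 19.7, 16.5 and 14.7 CPM in batches A, B, D and E against 19.96, 15.2, 13.4 and 16.4 CPM in untreated cells. It was higher in 3 of the 4 batches and lower in batch E, with a log2 fold change of 0.20 (SE 0.139) without and 0.20 (SE 0.0733, adjusted p = 0.231) with the batch term. Cacng2 was above untreated cells in all 4 batches with miR-92a-1-5p, as were Gria1, Gria3 and 11.9% of all genes tested. For Cacng2 the log2 fold change was 0.08 (SE 0.0466) without and 0.09 (SE 0.0336, adjusted p = 0.263) with the batch term. Cacng8 was at 0.09 (SE 0.0780) and 0.10 (SE 0.0568) in the same order. Neither passed. Cacng4, which holds a match to the miR-92a-1-5p seed, was at 290 to 327 CPM with miR-92a-1-5p and 291 to 328 CPM in untreated cells (log2 fold change -0.02, SE 0.0528).

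The pore subunits did not pass in any comparison at 6 h. Gria2, the other gene with a match to the seed, was at 352 to 395 CPM with miR-92a-1-5p and at 336 to 383 CPM in untreated cells, a log2 fold change of 0.05 with a 95% interval from -0.11 to 0.20. Gria1 was at 343 to 366 CPM against 331 to 363 CPM, Gria4 at 76.9 to 86.3 CPM against 72.6 to 82.6 CPM, and Gria3 at 37.0 to 49.98 CPM against 36.7 to 44.8 CPM. For these 4 genes the log2 fold changes with miR-92a-1-5p were between 0.02 and 0.08. The shares of the subunits per length moved little, with Gria1 at 58.7% ± 1.31 of the pore sum in untreated cells and 58.4% ± 1.46 with miR-92a-1-5p.

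The oligoribonucleotides were also compared with each other at 6 h, at the same time in 3 pairs. No member passed without a batch term (0 of 10, 0% of all genes for miR-92a-1-5p against Mut.oligo, for miR-124-5p against Mut.oligo, and likewise for miR-92a-1-5p against miR-124-5p) or with it (0 of 10 and 0% in each). At an unadjusted p under 0.05 there were 0 members without the batch term and 1 with it, Cacng5 for miR-124-5p against Mut.oligo (0.20, SE 0.0898, adjusted p = 0.996). The share of all genes at that p with the batch term is not given here. Cacng5 differed between miR-92a-1-5p and Mut.oligo by 0.06 on the log2 scale (95% interval from -0.26 to 0.38), between miR-124-5p and Mut.oligo by 0.16 (-0.16 to 0.48) and from miR-124-5p to miR-92a-1-5p by -0.10 (-0.41 to 0.22). These intervals are from the model without the batch term. They leave room for differences of up to 0.48 on the log2 scale, so the 3 RNAs are not shown to act alike on Cacng5. With the batch term and 1 library left out at a time, the estimates in the same order were -0.04 to 0.12, 0.18 to 0.22 and -0.25 to -0.12.

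At 5 d Cacng5 was not called with or without the batch term, and its libraries differed by batch. Untreated cells held 13.7 CPM (batch I), 11.3 CPM (J), 19.3 CPM (L) and 11.7 CPM (M). With miR-92a-1-5p the values were 17.3 CPM (H), 12.1 CPM (I), 9.62 CPM (K) and 11.2 CPM (M), with miR-124-5p 19.8, 13.6, 10.6 and 11.9 CPM in the same batches, and with Mut.oligo 12.9 CPM (I), 11.1 CPM (J), 10.51 CPM (K) and 11.9 CPM (M). The 3 highest libraries came from batches H and L, neither of which held both an untreated and a treated library. Batch K had the lowest library of each treated group.

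No member passed at 5 d. Without the batch term 0 of 10 were called for miR-92a-1-5p (0.00517% of 19333 genes, which is 1 gene), for miR-124-5p (0%) and for Mut.oligo (0%). DESeq2 called 0 members. At an unadjusted p under 0.05 there was 1 member, Cacng3 with miR-92a-1-5p. Of all genes, 3.63%, 2.60% and 2.79% were under that p in the same order. With the batch term 0 of 10 were called as well, where the background was 0.512%, 0.0259% and 0.0517% of genes in the same order. In that model 3 (Cacng3, Cacng5 and Gria1), 0 and 1 (Cacng3) members had an unadjusted p under 0.05, given without the share of all genes at that p. Libraries that did not overlap with untreated cells were seen for 0 of 10 members with each RNA, against 2.84%, 1.67% and 2.03% of genes. The log2 fold changes of Cacng5 were -0.16 (SE 0.205), 0.01 (SE 0.204) and -0.27 (SE 0.205) without the batch term. With it they were -0.15 (SE 0.0613), 0.01 (SE 0.0610) and -0.03 (SE 0.0557). Within batches I and M the difference with miR-92a-1-5p was -0.19 and -0.07, and the 3 batches shared by Mut.oligo gave -0.09, -0.02 and 0.02.

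**Figure D4:**
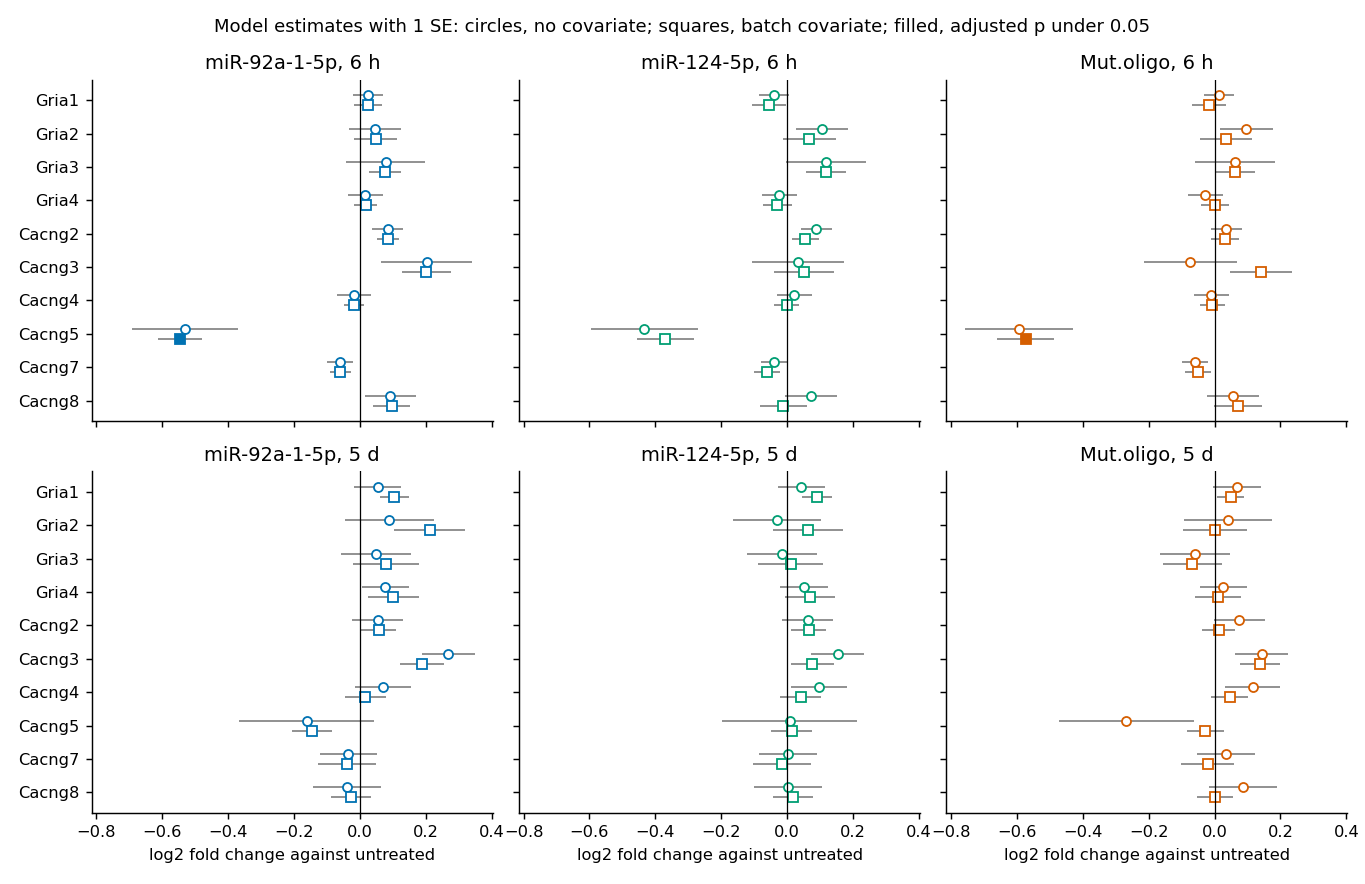
Log2 fold change against untreated cells with 1 SE for the 10 genes, 3 oligoribonucleotides and 2 time points, from the model without a covariate (circles) and with the experiment batch (squares), filled where the adjusted p is under 0.05. The only filled symbols are those of Cacng5 at 6 h with miR-92a-1-5p and with Mut.oligo in the batch model.

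Whether the difference itself changed with time was tested as the contrast at 5 d minus that at 6 h. Without a batch term it was 0.37 (SE 0.273) for Cacng5 with miR-92a-1-5p, 0.44 (SE 0.274) with miR-124-5p and 0.35 (SE 0.276) with Mut.oligo on the log2 scale, and 0 of 10 members were called, with 0% of 20425 genes called in each. With the batch term it was 0.41 (SE 0.0905, adjusted p = 0.0591), 0.39 (SE 0.101, adjusted p = 1.00) and 0.56 (SE 0.0979, adjusted p = 0.0645, edgeR). Again 0 of 10 members passed, where 0.176%, 0.0049% and 0.00979% of genes did. DESeq2 with the batch term called Cacng5 for miR-92a-1-5p (adjusted p = 0.0196) and for Mut.oligo (adjusted p = 0.0171). Whether the difference between the times passed therefore depended on the tool.

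Cacng3 was the 1 member with an unadjusted p under 0.05 at 5 d without the batch term. This was with miR-92a-1-5p, where 3.63% of all genes were under that p. At 5 d Cacng3 was at 53.8, 47.4, 44.3 and 44.2 CPM with miR-92a-1-5p in batches H, I, K and M and at 45.1, 36.0, 40.2 and 36.1 CPM in untreated cells (I, J, L and M). The log2 fold change was 0.27 (SE 0.0801, adjusted p = 0.709) without and 0.19 (SE 0.0660, adjusted p = 0.327) with the batch term. With miR-124-5p and Mut.oligo it was 0.15 and 0.14. In the batches it shared with untreated cells, miR-92a-1-5p gave 0.07 in I and 0.29 in M.

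Between the oligoribonucleotides at 5 d, 0 of 10 members passed without a batch term (0% of genes in all 3 pairs, and 0 members at an unadjusted p under 0.05). With it 0 of 10 passed against a background of 0.0103% for miR-92a-1-5p against Mut.oligo, 0% for miR-124-5p against Mut.oligo, while for miR-92a-1-5p against miR-124-5p it was 0.0103%. Cacng5 was lower with miR-92a-1-5p than with miR-124-5p in all 4 shared batches, with log2 differences of -0.19, -0.17, -0.14 and -0.10 in H, I, K and M, where 5.73% of all genes were lower in all 4. The batch model gave -0.16 (SE 0.0508, adjusted p = 0.582).

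At 5 d 1 library was the lowest of its group in Gria2, Gria3 and Cacng7, without meeting Dixon's criterion for a library far from the rest. With miR-124-5p at 5 d, the batch H library had 353 CPM of Gria2 where the other 3 had 557 to 608 CPM, 65.8 CPM of Gria3 against 81.4 to 90.8 CPM, and 108 CPM of Cacng7 against 123.5 to 160 CPM. The miR-92a-1-5p library of the same batch had 539 CPM of Gria2. Without that library the log2 fold change of Gria2 with miR-124-5p went from -0.03 to 0.11 and that of Cacng5 from 0.01 to -0.22, and none of these passed.

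Other AMPA receptor genes and cell type markers were read beside Cacng5 at 6 h with the batch term. Of all genes tested, 1.06% were called with miR-92a-1-5p, 0% with miR-124-5p and 0.064% with Mut.oligo. Of 13 auxiliary and biogenesis proteins, 1 rose with miR-92a-1-5p, Shisa6, an auxiliary subunit that holds receptors at the synapse (log2 fold change 0.27, SE 0.0437, adjusted p = 0.00893), and 0 passed with miR-124-5p or Mut.oligo. Of 19 anchoring, trafficking and editing genes, 1 fell with miR-92a-1-5p, Nptx2, a secreted pentraxin that clusters AMPA receptors (-0.42, SE 0.0965, adjusted p = 0.0499), and 0 passed with the others. Of 6 GABAergic markers, 1 fell in the same comparisons as Cacng5, Gad1, which makes GABA, by 0.14 with miR-92a-1-5p (SE 0.0280, adjusted p = 0.0295) and by 0.23 with Mut.oligo (SE 0.0346, adjusted p = 0.0267) on the log2 scale. With miR-124-5p, Gad1 was at -0.13 (adjusted p = 0.798).

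The GABAergic list as a whole summed to 715 to 757 CPM in untreated libraries at 6 h, 699 to 748 CPM with miR-92a-1-5p, 658 to 728 CPM with miR-124-5p and 635 to 748 CPM with Mut.oligo. Within batches the sum differed from untreated cells by -0.07 to 0.02 on the log2 scale with miR-92a-1-5p and by -0.17 to -0.12 with Mut.oligo, smaller than the differences of Cacng5. No marker of the neuron, glutamatergic, astrocyte, oligodendrocyte lineage, microglia, endothelial and mural or cycling progenitor lists passed at 6 h. At 5 d, 4 of 7 oligodendrocyte lineage markers and 4 of 7 cycling progenitor markers were lower with miR-92a-1-5p in the batch model, as were 3 of 7 endothelial and mural markers. In that comparison 0.512% of all genes tested were called in either direction. The summed levels of these lists were lower in every shared batch with miR-124-5p and Mut.oligo too. The log2 differences with Mut.oligo were -0.57 to -0.40 for oligodendrocyte lineage, -0.39 to -0.27 for cycling progenitor and -0.81 to -0.41 for endothelial and mural markers. With miR-124-5p they were -0.51 to -0.37, -0.43 to -0.23 and -0.87 to -0.53 in the same order. The part of these cell types in the members' values was not tested.

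Across libraries, Cacng5 tended to vary opposite to its family rather than with it. After the mean of each group was taken away, its Pearson r over the 16 libraries at 6 h was negative with all 9 other members, from -0.79 with Cacng2 to -0.17 with Gria1. At 5 d it was negative with 8 of 9, down to -0.89 with Gria1 and -0.83 with Cacng8, and 0.53 with Cacng3. Gria1 and Gria2 in contrast went together at 5 d (r = 0.89). The genes most like Cacng5 were Rps6ka2 (r = 0.931), Tinf2 (0.924), Rbbp8 (0.905), Cfap43 (0.893) and Txn1 (0.892) at 6 h and 2310022B05Rik (0.984), Smoc1 (0.978), Aif1l (0.977), Pbx3 (0.970) and Foxp2 (0.967) at 5 d, with no gene in both sets. These are descriptions: libraries of a batch share an experiment, and the 3 highest Cacng5 values at 5 d are of batches H and L.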

How the data were processed

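The 32 libraries were stranded mRNA-seq of mouse cortical neurons. The authors deposited a table of raw counts per gene, made by alignment to GRCm38 with STAR and strand-aware counting over exons with featureCounts of Subread. All 32 columns were matched to samples by their labels. Of 49671 identifiers, 49412 had a symbol in GENCODE M21. The 10 members, the gene lists and the tests were chosen with earlier results of these data known. All 10 members, genes of the lists that were called, and the 5 genes most like Cacng5 at each time are named.

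Genes reaching 5 counts in 3 or more libraries were tested with edgeR 4.0.16 (R 4.3.3, quasi-likelihood test, TMM scaling) on all 4 groups of a time point, or on all 8 groups for time. A gene was called at a Benjamini-Hochberg adjusted p under 0.05 over all genes tested. All 10 members passed the filter. CPM are TMM-scaled and RPKM divide them by the union of a gene's exons. Intervals are 1.96 SE. The models with the experiment batch were an alternative, and those at 5 d, over both times and with libraries left out were added after the data were seen. Labels name separate biological replicates but not the animals behind them, so p-values measure the spread between these samples. DESeq2 1.42.0 was another alternative. Depth bounds precision by counting error only. Scripts were tested on simulated counts.

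Deviations from group means were more alike within an experiment batch (median r over pairs 0.214 at 6 h and 0.129 at 5 d) than between batches (-0.04 and -0.05).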

Additional observations from a re-analysis of the deposited data

Results flagged for a closer look

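In 80 sets of 4 libraries (10 genes in 8 groups), 2 had a library far from the other 3 by Dixon's criterion, which chance alone meets in about 1 in 20 sets. Gria4 was at 86.3 CPM in replicate 1 of miR-92a-1-5p at 6 h, where the other 3 libraries held 76.9 to 77.4 CPM. Cacng2 was at 75.1 CPM in replicate 2 of Mut.oligo at 6 h, where the others held 69.9 to 70.2 CPM.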

How the results depend on the processing

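With the experiment batch as a term, 1 of 10 members was called instead of 0 for miR-92a-1-5p and for Mut.oligo at 6 h, by edgeR and by DESeq2, and by DESeq2 1 instead of 0 for the 5 d minus 6 h contrast of both. Requiring a log2 fold change beyond 0.5 left 3 of the 8 members called between the times. Other size factors, filters and fits on the compared groups alone left these counts as they were. Leaving out 1 library kept the counts at 0 to 0 in the oligoribonucleotide comparisons and at 8 to 8 for time. At 5 d the Cacng5 to Cacng7 ratio had no stable sign: with miR-124-5p it went from 0.01 to -0.10 against Cacng4 and ranged from -0.26 to 0.23 with 1 library left out, and with miR-92a-1-5p from -0.29 to 0.063, the last without untreated replicate 3. In the batch model, Cacng3 was called for miR-92a-1-5p at 6 h in 1 of 8 fits with a library left out. Replicate numbers did not pair the libraries (median r -0.03 at 6 h and 0.09 at 5 d, with 1 and 8 of 16 libraries closest to their own number). With the replicate block, 0 members were called in the oligoribonucleotide comparisons and 8 for time, and Cacng5 was at -0.53, -0.43 and -0.59 at 6 h. DESeq2 without the batch term gave Cacng5 no adjusted p with miR-92a-1-5p. Longest transcripts in place of exon unions moved Cacng2 from rank 5 to 7 at 6 h, and Cacng5 stayed at 10. The causes of these shifts were not tested.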
